A study of Canis lupus familiaris with 13 samples.

Results

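Cells repair DNA by several routes, and this account follows 36 genes of those routes and of the checkpoint that halts division when DNA is damaged, chosen by gene symbol, in soft tissue sarcomas of dogs. The array read 33 of the 36 genes under a single symbol, with 60 probe sets (each a set of short probes summarised as 1 value). These were out of 15115 named genes and 42924 tested probe sets. PALB2, XRCC3 and BLM had no probe set with their symbol alone and are not analysed here. Of the 33 genes, 16 had 1 probe set and 17 had 2 to 5, and each gene is described at its probe set of highest mean unless another is named. No filter on low values was applied, so all 33 were tested.

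Homologous recombination rejoins a broken chromosome by copying its sister, with BRCA1 and BRCA2 loading the recombinase. The Fanconi anaemia pathway unhooks crosslinked strands, and end joining ligates broken ends without a template. Mismatch, base and nucleotide excision repair remove wrong or damaged bases, while the kinases ATM and ATR sense damage and pass the signal to CHEK2 and CHEK1. Many genes of recombination and of the Fanconi pathway are transcribed mainly in dividing cells, and soft tissue sarcomas are malignant tumours of connective tissue.

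Transcripts were measured in bulk RNA of 13 primary tumours, all untreated, of which 5 belonged to the metastatic group (MET1 to MET5) and 8 to the non-metastatic group (NM1 to NM8), whose dogs stayed free of metastasis for a year or longer. Breed, age, sex and tumour subtype were not used here. That each tumour is from a different dog is not stated, so p-values measure only the spread between these samples. The values are log2 intensities with sample medians from 6.71 to 6.94, and a difference is metastatic minus non-metastatic on that scale. Poly-A spike-in controls, transcripts added to the RNA before labelling, gave signal in all 5 metastatic tumours and in NM5 to NM8, gave little in NM1, NM3 and NM4 (4.48 to 4.95, against 8.12 or more elsewhere), and in NM2 were skewed towards the 3′ end by 3.54, against at most 0.959 elsewhere. The 9 tumours with evenly read spike-ins were therefore also compared alone. Among non-metastatic tumours, 21.3% of all named genes differed between those with and without spike-in signal (limma adjusted p under 0.05). In the tumours without spike-ins the spike-in probe sets, which had no target there, read 4.45 in the median and 7.16 at most, and for 10 of the 33 repair genes neither group mean was above 7.16. These 10 were ATM, BRCA1, BRIP1, CHEK1, ERCC2, EXO1, FANCM, RAD51AP1, UNG and XRCC2. Of the connective tissue markers 10 of 10, among them VIM, COL1A1 and COL3A1, averaged above 7.16, as did 7 of 7 macrophage and 6 of 6 endothelial markers. The summed log2 level of the 10 connective tissue markers ran from 119.42 to 126.39 in metastatic and from 119.28 to 127 in non-metastatic tumours. Of these 10, DCN and THY1 were lower in metastatic tumours (limma adjusted p = 0.00429 and 0.0425), 20% of the list against 3.7% of all named genes. Among the 9 tumours with spike-ins DCN passed again (adjusted p = 0.0346) and THY1 did not (adjusted p = 0.133).

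Repair and checkpoint genes passed the test between the groups at a share near that of all named genes. Of the 33 genes, 1 rose in metastatic tumours, FANCM, and 0 fell (limma adjusted p under 0.05), a share of 3.03% where 5.35% of all named genes were called, 1.65% of them higher and 3.7% lower. The median difference of the 33 was 0.16, against 0.05 over all named genes, and 20 of 33 differences were positive (60.6%, against 56.1% of all named genes). Over all their probe sets 3 of 60 passed (5%, against 4.9% of all tested probe sets), 2 of FANCM and 1 of XRCC6. Without adjustment, 9 of the 33 had p under 0.05 (27.3%, against 23.9% of all named genes), 7 higher and 2 lower. For 26 of the 33 the 95% interval of the difference lay between -1 and 1, that is, within a factor of 2 in either direction, and for 7 it reached beyond. Fewer cells of a type and less RNA per cell cannot be told apart in bulk tumours.

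**Figure D1:**
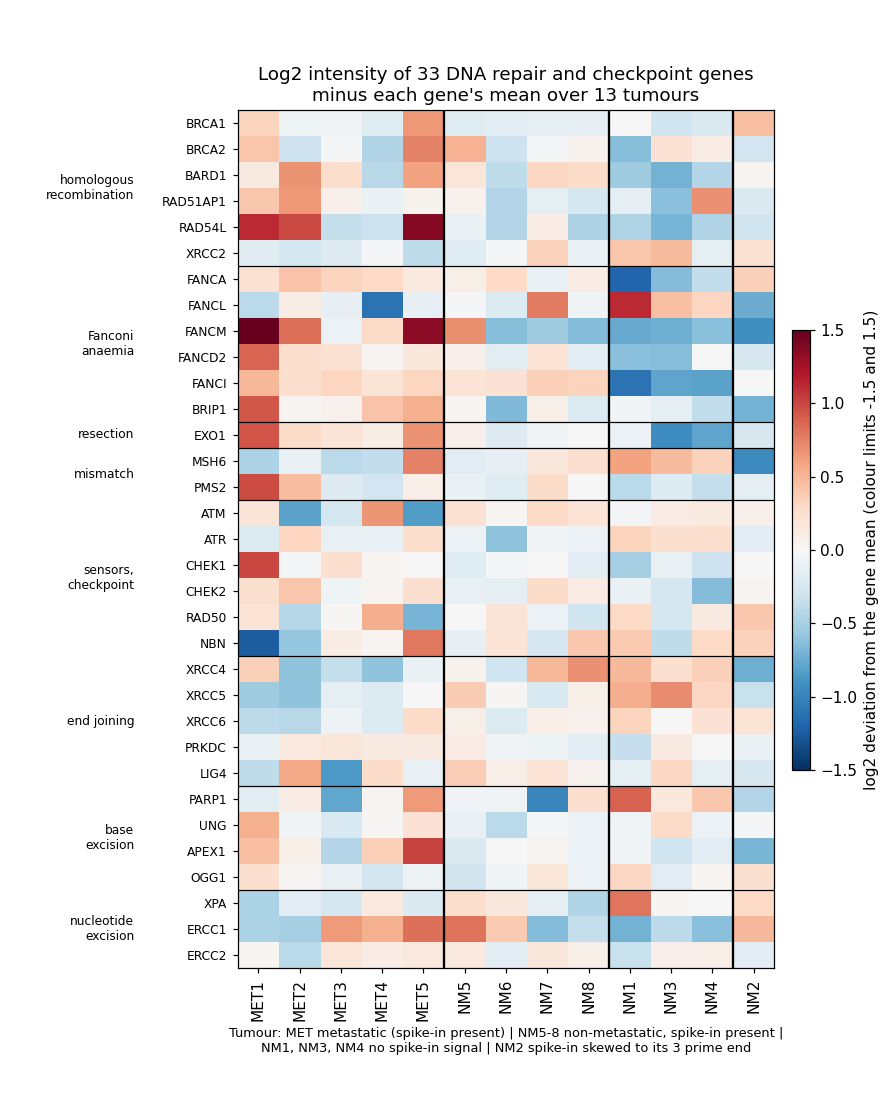
Log2 intensity of the 33 measured genes (rows, by repair route) in the 13 tumours (columns), as the deviation from each gene's mean; red is above and blue below that mean. FANCM and RAD54L were high in MET1, MET2 and MET5, and FANCI was low in NM1, NM3 and NM4.

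FANCM, a DNA translocase that anchors the Fanconi core complex at stalled forks, was the gene that passed. It read 7.53, 6.56, 5.65, 6.02 and 7.08 in MET1 to MET5, and from 4.82 to 6.44 with a median of 5.09 in the non-metastatic tumours. MET1 and MET5 were highest, and the groups overlapped because NM5, at 6.44, exceeded MET3 and MET4. The mean was 6.57 ± 0.76 (SD, n = 5) against 5.22 ± 0.51 (n = 8), a rise of 1.35 ± 0.32 (SE, limma adjusted p = 0.0293). Its other 2 probe sets were higher by 1.75 ± 0.40 (SE, limma adjusted p = 0.0269) and by 0.84 ± 0.26 (SE, adjusted p = 0.079). The former read 5.97, 5.59, 4.30, 4.64 and 6.76 in MET1 to MET5 and 2.76 to 4.56 in the non-metastatic tumours. All 3 probe sets thus placed MET1, MET2 and MET5 above MET3 and MET4. Among the 9 tumours with spike-ins FANCM differed by 1.11 and did not pass (limma adjusted p = 0.194), and its call was lost in 7 of the 13 fits that each left out 1 tumour (MET1, MET2, MET5, NM1, NM3, NM4 or NM8), with differences of 1.11 to 1.58 over the 13. The probe set that was higher by 1.75 passed in 8 of those 13 fits, and both group means of every FANCM probe set lay below 7.16.

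**Figure D2:**
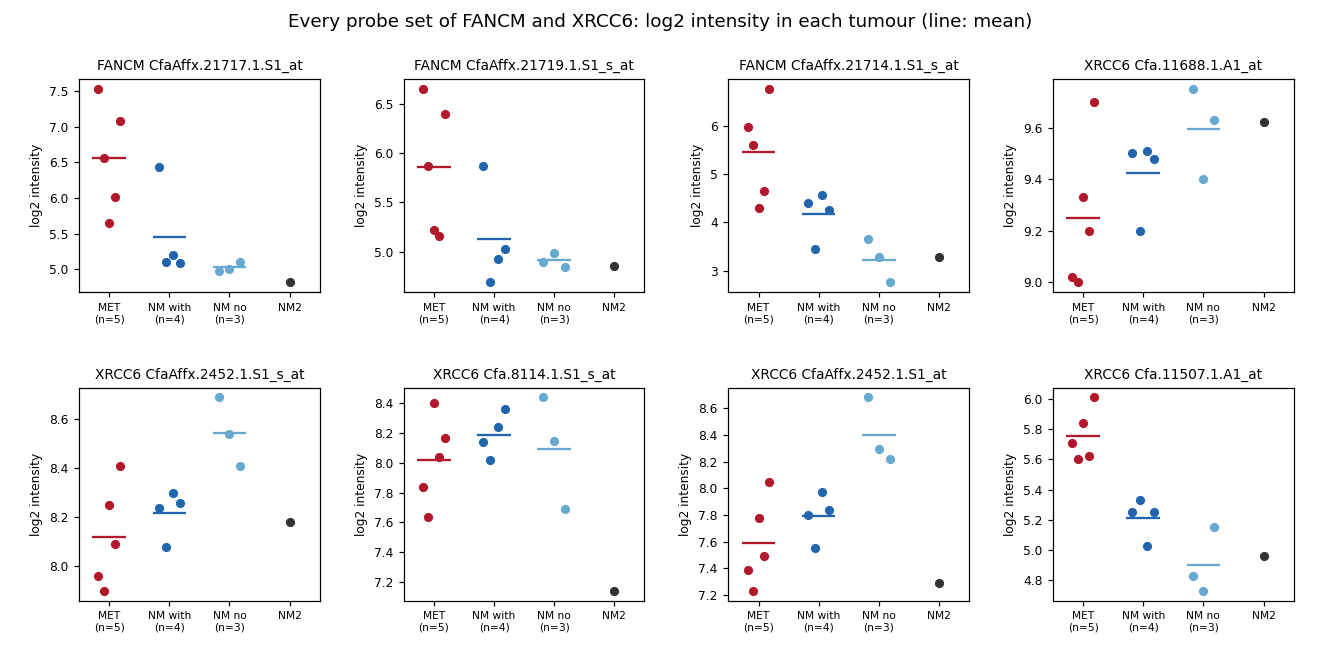
Log2 intensity of each probe set of FANCM and XRCC6 in every tumour (points, y axis, a separate scale in each panel), for metastatic tumours (MET), non-metastatic ones with spike-in signal (NM with), without it (NM no) and NM2; lines are means. All 3 FANCM probe sets were higher in MET1, MET2 and MET5 than in MET3 and MET4, while 1 of 5 XRCC6 probe sets, the dimmest, separated the groups.

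The other Fanconi genes did not pass. BRIP1, the helicase partner of BRCA1, read 5.68, 4.79, 4.82, 5.18 and 5.28 in MET1 to MET5 against 4.04 to 4.84 in non-metastatic tumours. It differed by 0.65 ± 0.18 (SE, limma adjusted p = 0.0587), with both means in the range of probe sets without target. FANCD2, which the core complex marks with ubiquitin, differed by 0.51 ± 0.18 (SE, adjusted p = 0.113), and its highest value by far was 9.16 in MET1, with 8.32 to 8.54 in the other metastatic tumours. FANCI, the partner of FANCD2, differed by 0.52 (adjusted p = 0.234), and FANCA, of the core complex, by 0.47 (adjusted p = 0.23). FANCL, the ubiquitin ligase subunit of that complex, went the other way at -0.54 ± 0.29 (SE, adjusted p = 0.267), from 7.03 to 8.25 in metastatic and from 7.40 to 9.26 in non-metastatic tumours. Of the 6 measured Fanconi genes 5 had positive differences, with a median of 0.51.

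Of the 6 measured genes of homologous recombination, 5 had positive differences and none passed, with a median of 0.29 and 1 gene on each side at unadjusted p under 0.05. RAD54L, a translocase that helps the recombinase invade the sister strand, split the metastatic tumours: it read 7.97, 7.84 and 8.22 in MET1, MET2 and MET5, but 6.50 and 6.53 in MET3 and MET4. The non-metastatic tumours ran from 6.16 to 6.97, so MET3 and MET4 lay among them. Its difference of 0.91 ± 0.28 (SE) had a limma adjusted p of 0.0796, and it passed when MET3 or MET4 was left out (1.14 and 1.13, adjusted p = 0.0362 and 0.0357). BRCA1 read 6.68, 6.28, 6.30, 6.16 and 6.99 in MET1 to MET5 and 6.04 to 6.79 in non-metastatic tumours, with a median of 6.20. The highest non-metastatic value, 6.79, was that of NM2. BRCA1 differed by 0.22, with a 95% interval of -0.12 to 0.57 (limma adjusted p = 0.403), and both means lay below 7.16. BRCA2 read 8.54, 7.81, 8.09, 7.67 and 8.87 in MET1 to MET5 and 7.48 to 8.64 in non-metastatic tumours, with a median of 8.14, and the groups overlapped almost fully. It differed by 0.12, with an interval of -0.36 to 0.60 (adjusted p = 0.764), and by 0.15 at its other probe set. BARD1, the obligate partner of BRCA1, differed by 0.41 (adjusted p = 0.278), RAD51AP1, which stimulates the recombinase, by 0.35 (adjusted p = 0.292), and XRCC2, a paralogue of the recombinase, by -0.34 ± 0.14 (SE, adjusted p = 0.176).

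EXO1, the exonuclease that resects broken ends and also serves mismatch repair, was the only one of the 33 genes in which the groups did not overlap at the probe set of highest mean (3.03%, against 2.96% of all named genes). It read 6.85, 6.19, 6.10, 6.02 and 6.58 in MET1 to MET5, and 4.98 to 5.99 with a median of 5.77 in the non-metastatic tumours. MET4, at 6.02, lay just above NM5, at 5.99. The difference was 0.71 ± 0.20 (SE) with a limma adjusted p of 0.0587, and it passed without NM2 (0.72, adjusted p = 0.0496). Both means lay below 7.16, and the other probe set differed by 0.52 (adjusted p = 0.234). Of the mismatch repair genes, PMS2, a subunit of the MutL endonuclease, differed by 0.35 (adjusted p = 0.294), and MSH6, which recognises mispaired bases, by -0.20 (adjusted p = 0.665).

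**Figure D3:**
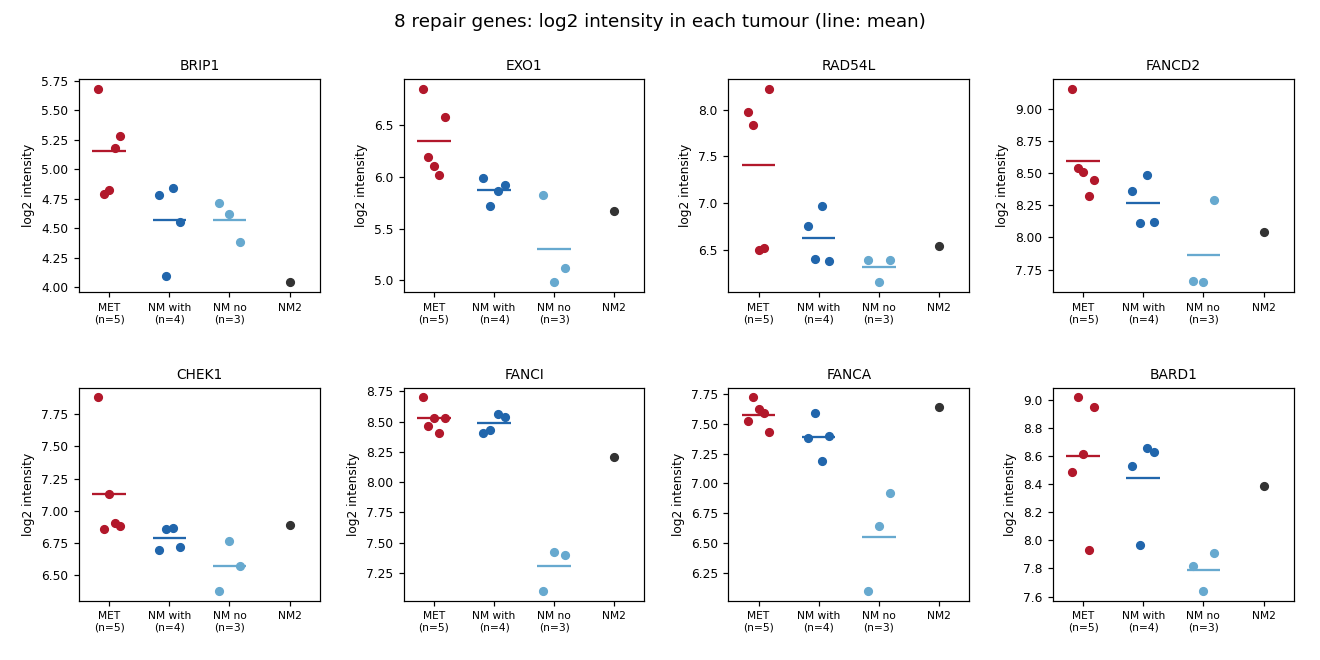
Log2 intensity of 8 repair genes in every tumour (points, y axis, a separate scale in each panel), with the same 4 columns of tumours as the FANCM plot; lines are means. RAD54L was split among metastatic tumours (6.50 and 6.53 against 7.84 to 8.22), and FANCI, FANCA and BARD1 were lower in NM1, NM3 and NM4 than in NM5 to NM8.

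Damage sensors and checkpoint kinases showed no called difference, and 3 of the 6 were positive. CHEK1, the kinase that restrains CDK1 after replication stress, read 7.88, 6.86, 7.13, 6.91 and 6.88 in MET1 to MET5 and 6.38 to 6.89 in non-metastatic tumours, with a median of 6.75. MET1 stood above all others, and MET2 and MET5 overlapped with the non-metastatic tumours. CHEK1 differed by 0.41 ± 0.17 (SE, limma adjusted p = 0.166) over all 13 tumours and by 0.23 (adjusted p = 0.333) without MET1, and both means lay below 7.16. CHEK2, activated by ATM, differed by 0.28 (adjusted p = 0.268), and ATR, which senses single-stranded DNA, by 0.05 (adjusted p = 0.866).

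ATM, which senses double-strand breaks, had a wider range among metastatic tumours, a difference in spread that was not tested. It read 6.96, 5.96, 6.50, 7.43 and 5.93 in MET1 to MET5, whereas the 8 non-metastatic tumours stayed between 6.74 and 7.07 with a median of 6.90. MET2, MET3 and MET5 lay below and MET4 above all of them. The SD was 0.65 (n = 5) against 0.11 (n = 8), and the difference of the means was -0.35 (limma adjusted p = 0.337). The other ATM probe set gave another picture, with 6.32 to 6.73 in metastatic and 5.75 to 6.40 in non-metastatic tumours, a difference of 0.46 (adjusted p = 0.0722). Both means of both ATM probe sets lay below 7.16. NBN and RAD50, which with the nuclease MRE11 tether broken ends, differed by -0.29 and -0.12 (adjusted p = 0.535 and 0.733), and NBN ran from 8.07 in MET1 to 10.10 in MET5.

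Of the 5 genes of end joining, 4 had negative differences, with a median of -0.26 and 0 called. XRCC5, the larger subunit of the Ku ring that caps broken ends, read 7.33, 7.26, 7.72, 7.66 and 7.87 in MET1 to MET5 against 7.53 to 8.57 in non-metastatic tumours. Its difference was -0.48 ± 0.19 (SE, limma adjusted p = 0.142), and the groups overlapped. XRCC6, the other Ku subunit, differed by -0.26 at its brightest probe set (adjusted p = 0.26), by -0.37, -0.22 and -0.0045 at 3 others, and rose by 0.69 ± 0.13 (SE, adjusted p = 0.0119) at its dimmest. That last probe set read 5.71, 5.60, 5.84, 5.62 and 6.01 in MET1 to MET5 and 4.73 to 5.33 in non-metastatic tumours. The groups did not overlap there, and it was also called among the 9 tumours with spike-ins (0.54, limma adjusted p = 0.0425), where 2.78% of all probe sets were called. It passed in 13 of 13 fits that each left out 1 tumour, with differences of 0.63 to 0.73. Both of its means lay below 7.16, whereas the other 4 probe sets were brighter, and which of the 5 reads the XRCC6 transcript best was not tested. PRKDC, the kinase recruited by Ku, varied little: it read 8.78, 9.03, 9.07, 9.02 and 9.02 in MET1 to MET5 and 8.54 to 9.02 in non-metastatic tumours, with a median of 8.82. It differed by 0.16, with a 95% interval of -0.08 to 0.39 (adjusted p = 0.389). XRCC4 and LIG4, which together seal the ends, differed by -0.42 and -0.16 (adjusted p = 0.293 and 0.65).

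Excision repair genes did not pass either. PARP1, which binds strand breaks and marks them with poly(ADP-ribose), read 8.76, 9.04, 8.15, 8.97 and 9.57 in MET1 to MET5 and 7.95 to 9.82 in non-metastatic tumours, with a median of 8.99. The ranges lay on each other, with a difference of -0.06 and a 95% interval of -0.67 to 0.56 (limma adjusted p = 0.918). APEX1, the endonuclease that cuts at sites without a base, differed by 0.48 ± 0.20 (SE, adjusted p = 0.178), with MET5 highest at 11.51 and MET3 at 10.05, and by 0.04 to 0.20 at its other 3 probe sets. The glycosylases UNG and OGG1, which remove uracil and oxidised guanine, differed by 0.16 and -0.07 (adjusted p = 0.498 and 0.774).

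In nucleotide excision repair, XPA, which verifies the damaged strand, differed by -0.31 (limma adjusted p = 0.3), while its other probe set came close to the threshold at -0.95 ± 0.27 (SE, adjusted p = 0.0549). That probe set read 5.35, 6.05, 5.99, 6.41 and 5.68 in MET1 to MET5, 6.65 to 7.51 in 7 non-metastatic tumours and 5.72 in NM2. It passed without NM2, at -1.11 (adjusted p = 0.00576), and without MET4, at -1.08 (adjusted p = 0.0487), and in none of the other 11 such fits. Both means of that probe set lay below 7.16. The nuclease subunit ERCC1 and the helicase ERCC2 differed by 0.34 and 0.02 (adjusted p = 0.53 and 0.927).

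**Figure D4:**
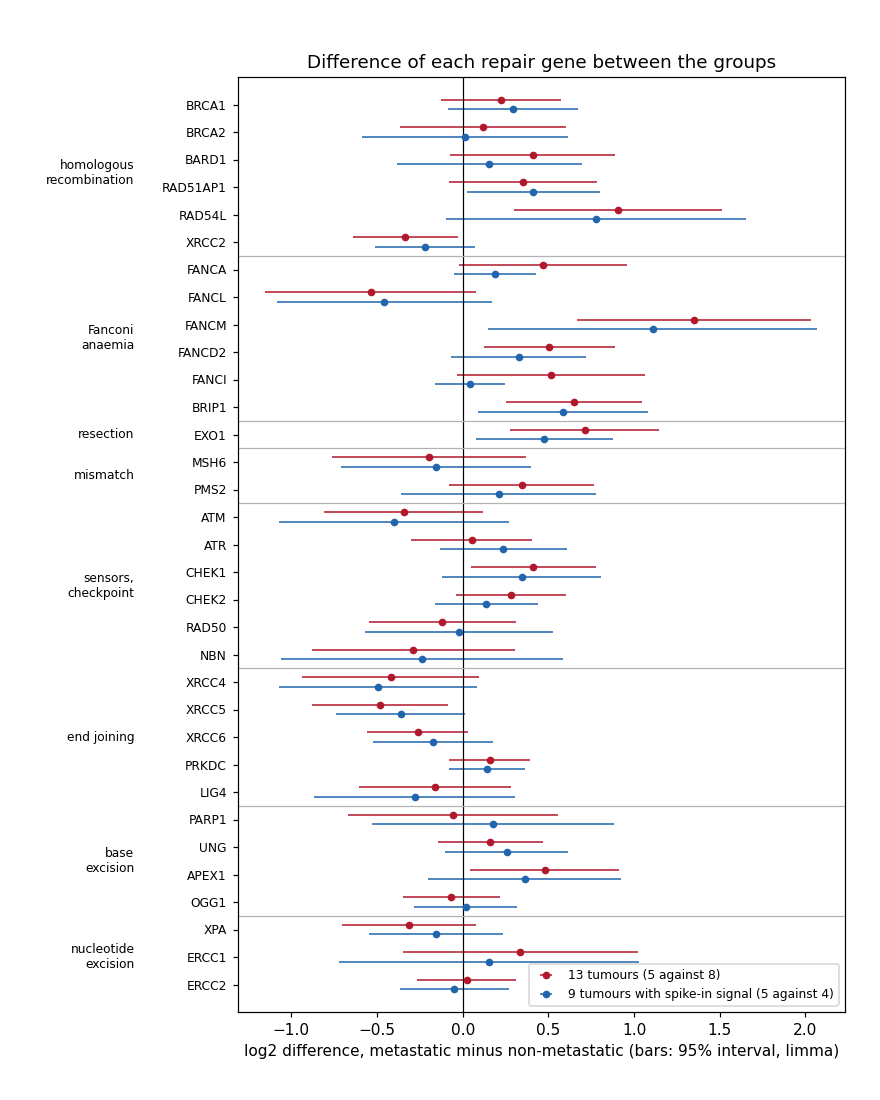
Difference of each gene (x axis, log2, metastatic minus non-metastatic) with its 95% interval, over all 13 tumours (red) and over the 9 tumours with spike-in signal (blue). Most intervals cover 0, FANCM has the largest difference, and FANCI falls from 0.52 to 0.04 among the 9 tumours.

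Several Fanconi and recombination genes differed less among the 9 tumours with spike-ins, where the median difference was 0.26 over the 6 Fanconi genes and 0.22 over the 6 recombination genes. Among the 9 tumours with spike-ins 0 of the 33 genes passed (limma, against 2.82% of all named genes), 4 had unadjusted p under 0.05 (12.1%, against 20.2%), 30 kept their sign and 24 had a smaller difference than over all 13. FANCI read 8.70, 8.46, 8.53, 8.41 and 8.53 in MET1 to MET5, 8.41, 8.43, 8.56 and 8.54 in NM5 to NM8, 8.21 in NM2, but 7.10, 7.42 and 7.40 in NM1, NM3 and NM4. It therefore differed by 0.52 over all tumours and by 0.04 (adjusted p = 0.839) among the 9, and its rise in non-metastatic tumours with over those without spike-in signal was 1.18 (adjusted p = 0.00357). FANCA and BARD1 were likewise higher with spike-in signal, by 0.84 and 0.66 (adjusted p = 0.0261 and 0.0438), and differed between the disease groups by 0.19 and 0.15 among the 9 tumours. These 3 made 9.09% of the 33, against 21.3% of all named genes called and 17.1% called higher. Over all 60 probe sets 6 were called higher and 4 lower with spike-in signal (16.7%). Of all 42924 tested probe sets 6798 were called higher and 2513 lower. Besides FANCI, FANCA and BARD1, these were probe sets of ATM, EXO1 and FANCD2 (higher) and of PRKDC, XPA and XRCC6 (lower). Other measures moved along that split: 4 of 6 endothelial markers (CDH5, KDR, TEK and TIE1) were higher with spike-in signal, where their list summed to 49.27 to 53.96 against 45.74 to 48.53 without. The summed levels of 6 skeletal muscle markers did not overlap between these tumours either (37.25 to 42.17 against 34.04 to 35.62). Nor did those of 6 T and NK cell markers (42.76 to 43.77 against 40.44 to 41.76). In each of these 2 lists 1 gene was called higher, 16.7% against 17.1% of all named genes. Only 2 of the 6 muscle and 3 of the 6 T and NK cell markers averaged above 7.16. The ACTB 3′ minus 5′ value, which rises as RNA degrades, was 1.42 to 1.84 against 1.07 to 1.54. Their part in the differences of FANCI, FANCA and BARD1 was not tested.

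The metastatic tumours were uneven. MET1 was highest of the 13 in 8 of the 33 genes, among them FANCM, FANCD2, BRIP1, EXO1 and CHEK1, and MET5 in 7. Among the others NM1 was highest in 6 and also lowest in 7, MET2 was highest in 4, and MET3, MET4 and NM3 in 2 each. The mean deviation of the 33 genes from their own averages was 0.21 in MET1 and 0.29 in MET5, against 0.04 in MET2, -0.01 in MET4 and -0.07 in MET3. The non-metastatic tumours lay between -0.14 and 0.08. MET5 also stood apart in skeletal muscle markers, whose summed log2 level was 57.41 there, 35.45 to 41.25 in the other metastatic and 34.04 to 42.17 in the non-metastatic tumours, and their part in its repair gene values was not tested. The same tumours ranked in nearly this way for the 19 proliferation genes (such as CDK1, TOP2A and RRM2), with mean deviations of 1.02 in MET1, 0.98 in MET5, 0.80 in MET2, 0.37 in MET4 and 0.11 in MET3.

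Most proliferation genes had positive differences. Of 19 measured, 8 rose and 0 fell (42.1%, against 5.35% of all named genes), with a median difference of 0.95. Of the 19 differences 18 were positive, and 16 were higher at limma's unadjusted p under 0.05, as were 1808 of all 15115 named genes. CDK1, the mitotic kinase, rose by 2.02 ± 0.27 (SE, limma adjusted p = 0.00262), while PCNA, the polymerase clamp shared by replication and repair, differed by 0.47 (adjusted p = 0.233). Whether the lists differ was not tested. Among the 9 tumours with spike-ins 4 of the 19 passed (21.1%, against 2.82% of all named genes). Within the 8 non-metastatic tumours, where the disease group is constant, none of the 33 correlations with CDK1 passed. With 8 tumours and adjustment over the 33, only a very strong correlation could pass, so no conclusion is drawn from that. RAD54L had the highest Pearson r, 0.74 (exact permutation p = 0.0367, adjusted over the 33 to 0.93), with a Spearman rho of 0.66 (exact permutation p = 0.0839, adjusted p = 0.949), and r was 0.57 without NM3 and NM6, the tumours farthest from the median CDK1. RAD51AP1 had the highest Spearman rho, 0.75 (exact permutation p = 0.0377, adjusted p = 0.949), with r of 0.55 (exact permutation p = 0.159, adjusted p = 0.93) that was -0.016 without NM3 and NM6. The spike-in sets hold too few non-metastatic tumours, 4 and 3, for a value of their own.

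**Figure D5:**
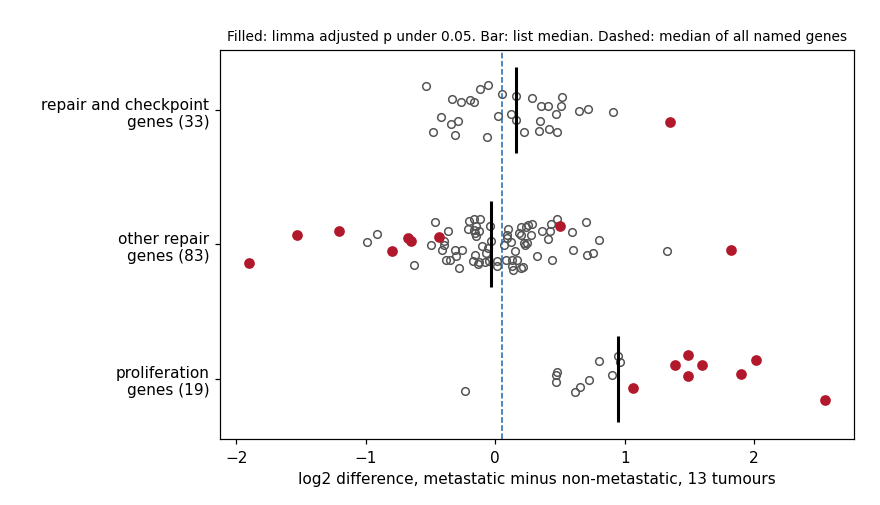
Log2 difference (x axis, metastatic minus non-metastatic, 13 tumours) of each gene of 3 lists; filled points passed limma's adjusted p of 0.05, bars are list medians and the dashed line is the median of all named genes. The repair genes centre on 0.16 with 1 filled point, other repair genes on -0.03 with 9, and proliferation genes on 0.95 with 8.

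Some further repair genes outside the 36, of the same and of other routes, fell. Of 83 measured, 2 rose and 7 fell (10.8%, against 5.35% of all named genes), with a median of -0.03. REV3L, the catalytic subunit of a polymerase that copies past lesions, read 11.23 ± 0.37 (SD, n = 8) without metastasis and 9.69 ± 0.62 (SD, n = 5) with it. It fell by 1.54 ± 0.25 (SE, limma adjusted p = 0.00571). FANCC, a core complex subunit, fell by 1.90 (adjusted p = 0.021) and MLH3, a MutL subunit, by 1.21 (adjusted p = 0.00704). MPG, an alkylation glycosylase, fell by 0.65, POLB, the polymerase of base excision repair, by 0.80, the glycosylase NEIL2 by 0.67 and APLF, an end joining factor, by 0.44, with adjusted p of 0.00952, 0.0424, 0.0357 and 0.0424. HELLS, a chromatin remodeller, rose by 1.82 and RAD51B, a recombinase paralogue, by 0.50 (adjusted p = 0.0125 and 0.0474). Among the 9 tumours with spike-ins 6 of the 83 passed, all lower (7.23%, against 2.82% of all named genes). REV3L, FANCC, MLH3, MPG and APLF passed again, at -1.64, -1.73, -1.11, -0.65 and -0.45, while POLB, NEIL2, HELLS and RAD51B did not (adjusted p = 0.0592 to 0.104). The other was FANCE, also of the Fanconi pathway, at -1.17 (limma adjusted p = 0.0261). Over all 13 tumours FANCE differed by -0.91 and did not pass (adjusted p = 0.0818). The second REV3L and APLF probe sets also fell (by 1.63 and 1.17), and of the other 2 of NEIL2, 1 differed by 0.34, the opposite sign. In the 13 fits without 1 tumour the call of NEIL2 held only without MET1, NM2 or NM7, that of POLB only without MET4, NM2 or NM6, that of RAD51B only without NM2, NM6 or NM7 and that of APLF only without NM2 or NM4. The call of FANCC was lost without MET1 or MET5, and those of REV3L, MLH3, MPG and HELLS held in all 13. Without the 3 tumours lacking spike-in signal, 0 of the 83 passed limma's adjusted p (19 at unadjusted p under 0.05), where 0.496% of all named genes did. With the replicate number as a block, which kept only the 10 tumours numbered 1 to 5, 3 passed (1.65% of all named genes). In those 10 tumours without the block 7 passed (2.99% of all named genes).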

How the data were processed

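The authors deposited 1 table of log2 intensities per probe set for 13 arrays; the log2 scale was read from the values (0 to 14.33), and its software, background correction and normalization are not stated in these sources. Per the labels' protocols, total RNA was labelled by 1 cycle of 3′ in vitro transcription for an Affymetrix canine array. Groups came from sample titles. Of 43035 probe sets, 111 controls were left out. Symbols came from the platform annotation, and the identifiers of 30 of the 33 genes were found in RefSeq (assembly UU_Cfam_GSD_1.0) with 0 symbols changed. The model was limma 3.58.1 (lmFit, eBayes; R 4.3.3) on all probe sets together, two-sided, with Benjamini-Hochberg adjustment over 42924 probe sets at 0.05; the fit was tested on simulated data. Errors are SE for differences and SD for means. Spike-in sets were defined by a 3′ mean above 6 and a 3′ minus 5′ value under 2. Python 3.11.15, scipy 1.17.1 and matplotlib 3.10.9 did the rest.

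The rule named all 36 genes and gave sample values for those past the threshold at any probe set. It also gave them for CHEK1, BRCA1, BRCA2, ATM, PARP1 and PRKDC. Other repair genes past the threshold at their chosen probe set over the 13 tumours were named, with CDK1 and PCNA. FANCE and further sample values were chosen after they were seen. Genes and lists were chosen with earlier results of these data known. A planned search of promoters for motifs was not run. The number of arrays limits the precision.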

Additional observations from a re-analysis of the deposited data

Results flagged for a closer look

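A sample lay far from the rest of its group in 7 of 66 group and gene pairs tested among the 33 repair genes. Chance flags about 1 in 20 independent groups, but these pairs share the same 13 tumours. Whether 7 flags exceed chance was not tested. In MET1, CHEK1 (7.88, next 7.13) and FANCD2 (9.16, next 8.54) stood above the other metastatic tumours, and PRKDC (8.78, next 9.02) below them. ERCC2 was lowest in MET2 (5.19, next 5.63). In NM2, APEX1 was lowest (9.81, next 10.19) and BRCA1 highest (6.79, next 6.35) of the non-metastatic tumours. FANCM in NM5 (6.44, next 5.21) stood above the other non-metastatic tumours, and without NM5 its difference was 1.52 (limma adjusted p = 0.011).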

How the results depend on the processing

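The single call among the 33 genes depended on the samples. The count of called genes was 0 with only brighter probe sets (22 genes left, FANCM not among them), among the 9 tumours with spike-ins, with the spike-in set as a block, without the 3 tumours lacking spike-in signal, with a replicate block over the numbers 1 to 5, and in those 10 tumours without the block. In these 6 fits 8.93%, 2.82%, 3.98%, 0.496%, 1.65% and 2.99% of all named genes were called. The count was 2 with the ACTB covariate (5.56% of all named genes), 9 of 33 by unadjusted exact permutation p under 0.05 (27.3%, against 23.9% of all named genes), and 0 to 2 without 1 tumour (2.14% to 10.7%). Other repair genes called numbered 3 with the replicate block (1.65% of all named genes) and 7 in those 10 tumours without it (2.99%). With array weights they numbered 16 (9.67% of all named genes). They numbered 0 without the 3 tumours lacking spike-in signal (0.496%) and 4 to 16 without 1 tumour (2.14% to 10.7%). The 16 came without NM2, where 10.7% of all named genes were called. Proliferation genes called numbered 4 among the 9 tumours (2.82% of all named genes) and 2 without the 3 (0.496% of all named genes). The titles' replicate numbers do not pair samples: same-numbered deviations correlated at -0.0086 to 0.078, and 1 of 5 metastatic tumours correlated best with its own number. The fits without the 3 tumours, of the 10 tumours without the block, and of the 9 with the ACTB covariate were chosen after seeing the data. Among the 9 tumours, 0 genes passed without any 1 of them or with the ACTB covariate. With array weights the FANCM difference did not pass (1.08, limma adjusted p = 0.0727) and the BRIP1 difference did (0.61, adjusted p = 0.0444), and BRIP1 also passed with the ACTB covariate (0.71, adjusted p = 0.0302).

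Signs turned only for genes that did not pass. PARP1 was 0.08 under quantile normalization, 0.18 among the 9 tumours and with the spike-in block, 0.033 with the ACTB covariate and 0.22 without the 3; ERCC2 was -0.064, -0.051, -0.051 and, without the 3, -0.004; OGG1 was 0.017 among the 9 and with the block, and 0.011 with array weights. RAD50 was 0.037 under quantile normalization, 0.046 as the mean of its probe sets, 0.21 at the most variable one and 0.0038 with array weights. PRKDC was -0.12 as the mean of its probe sets and -0.49 at the most variable one, PMS2 -0.47 at the most variable one, ATM 0.056 as the mean, MSH6 0.042 without the 3, and ATR -0.084 in the 10 numbered tumours with and without the replicate block. The cause was not tested. Without 1 tumour, ATR ran from -0.033 to 0.11, BRCA2 from -0.049 to 0.25, ERCC2 from -0.024 to 0.13, LIG4 from -0.33 to 0.026, PARP1 from -0.22 to 0.13 and RAD50 from -0.27 to 0.037. For 10 of the 33 genes neither group mean was above 7.16, the highest reading of a probe set without target.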
